A study of Prunus persica with 20 samples.

Results

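Transcript levels of 8 genes of flavonoid and anthocyanin synthesis were examined in young fruit of 4 accessions of peach, Prunus persica. The members were taken from a list of ids, and all 8 were found among the 26811 genes of the count table. They comprise 2 chalcone synthases (Prupe.1G002900.v2.1 and Prupe.1G003000.v2.1, called CHS 1G002900 and CHS 1G003000), a chalcone isomerase (CHI, Prupe.2G225200.v2.1) and a flavanone 3-hydroxylase (F3H, Prupe.7G168300.v2.1). A dihydroflavonol reductase (DFR, Prupe.1G376400.v2.1), an anthocyanidin synthase (ANS, Prupe.5G086700.v2.1), a glucosyltransferase (UFGT, Prupe.2G324700.v2.1) and an anthocyanin glutathione transferase (GST, Prupe.3G013600.v2.1) complete the list. The roles are those given with the list, since the table itself holds ids without names.

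Messenger RNA was sequenced from fruit taken at fruit set, in a study of how fruit hair is regulated. TN11 is a peach with the stated genotype GG at G, the locus behind the difference between fuzzy peach and smooth nectarine, and TN7 is a peach stated Gg. MN is the Maravilha nectarine mutant, a smooth-fruited mutant of a peach that is also stated Gg, and Sunraycer is a commercial nectarine stated gg. There were 5 libraries each of TN11, MN and Sunraycer and 4 of TN7, with 14890206 to 24474843 counts per library. Each accession stands alone for its combination of genotype and fruit surface, so genotype, fruit surface and the rest of the accession's background cannot be told apart. Nothing states whether replicates were separate trees or fruits, and p-values then measure only the spread between these libraries, which may be technical. In whole fruit, fewer cells that express a gene cannot be told apart from less RNA per cell.

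Flavonoids are built from phenylalanine through a single trunk of enzymes. Chalcone synthase makes the first flavonoid skeleton, chalcone isomerase closes its ring, and flavanone 3-hydroxylase turns the flavanone into a dihydroflavonol, from which flavonols branch off. Dihydroflavonol reductase and anthocyanidin synthase carry the trunk on to leucoanthocyanidins and anthocyanidins, which feed both the proanthocyanidins (condensed tannins, typical of young fruit) and the anthocyanins (red pigments). UFGT adds the sugar that stabilises an anthocyanin, and a glutathione transferase of this kind is needed in peach to bring the pigment into the vacuole.

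Levels are given as CPM, the counts of a gene scaled to a common library size with TMM factors and not adjusted for gene length, so they compare libraries and not genes. The members fell into 3 patterns. Both chalcone synthases were highest in Sunraycer, at 2.84-fold and 2.82-fold the TN11 level. CHI, F3H, DFR and ANS had their lowest mean level in TN7, as both chalcone synthases did. Unlike the chalcone synthases, these 4 genes also spread over their widest fold range between libraries in TN7. UFGT and GST were scarce everywhere and had their higher means in MN and TN7, the accessions stated Gg. The GST mean of TN7 rests on replicate 3, at 8.26 CPM, with 0.375, 0.530 and 0.752 CPM in replicates 1, 2 and 5. Its difference from TN11 did not pass the test (edgeR adjusted p = 0.0943).

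A member was called when its adjusted p was below 0.05 (edgeR's quasi-likelihood test, Benjamini-Hochberg over 19360 tested genes) and its difference was at least 2-fold. All 8 members passed the filter on low counts over the 19 libraries, but GST passed through MN and TN7 libraries where it is high: it was filtered out where Sunraycer was fitted with any 1 other accession alone, and UFGT where Sunraycer was fitted with TN11 alone. The counts below that include GST, for Sunraycer with TN7 and for MN with Sunraycer, therefore describe the list and support nothing. UFGT and GST, called between MN and TN11, and UFGT, called between TN7 and TN11, were also kept through MN or TN7 libraries. Those counts are likewise a description, since neither gene was kept where Sunraycer was fitted with TN11 alone. Of the 8 members, 2 were called between Sunraycer and TN11, both higher in Sunraycer, where 18.3% of all tested genes were called (9.85% higher and 8.49% lower). Between MN and TN7, 2 were called, both higher in MN, against 10.3% of all genes (2.73% higher and 7.59% lower). On the adjusted p alone 5 members passed between MN and TN7, against 20.4% of all genes.

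Between MN and TN11, 2 members were called, both higher in MN, against 15.0% of all genes (3.88% higher and 11.1% lower). Sunraycer and TN7 differed in 5 members, 3 higher and 2 lower in Sunraycer, where 16.2% of all genes were called (9.71% higher and 6.45% lower). On the adjusted p alone 7 members passed in that pair, against 36.0% of all genes. MN and Sunraycer differed in 4 members, 2 in each direction, against 25.2% of all genes (8.41% higher in MN and 16.8% lower). TN7 and TN11 differed in 1 member, higher in TN7, against 4.34% of all genes (1.55% higher and 2.78% lower). With so few members these shares describe the list and do not set it apart from other genes. The median log2 fold change of the members was 0.86 for MN minus TN7, −0.62 for TN7 minus TN11 and 0.92 for Sunraycer minus TN7. Over all tested genes the corresponding medians were −0.015, −0.0067 and −0.063. In the pairs without TN7 the members' medians were 0.49 for MN minus TN11, 0.32 for Sunraycer minus TN11 and 0.12 for MN minus Sunraycer. The medians of all tested genes there were −0.018, −0.050 and 0.036. Several members varied together, so these medians do not set the list apart either.

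**Figure D1:**
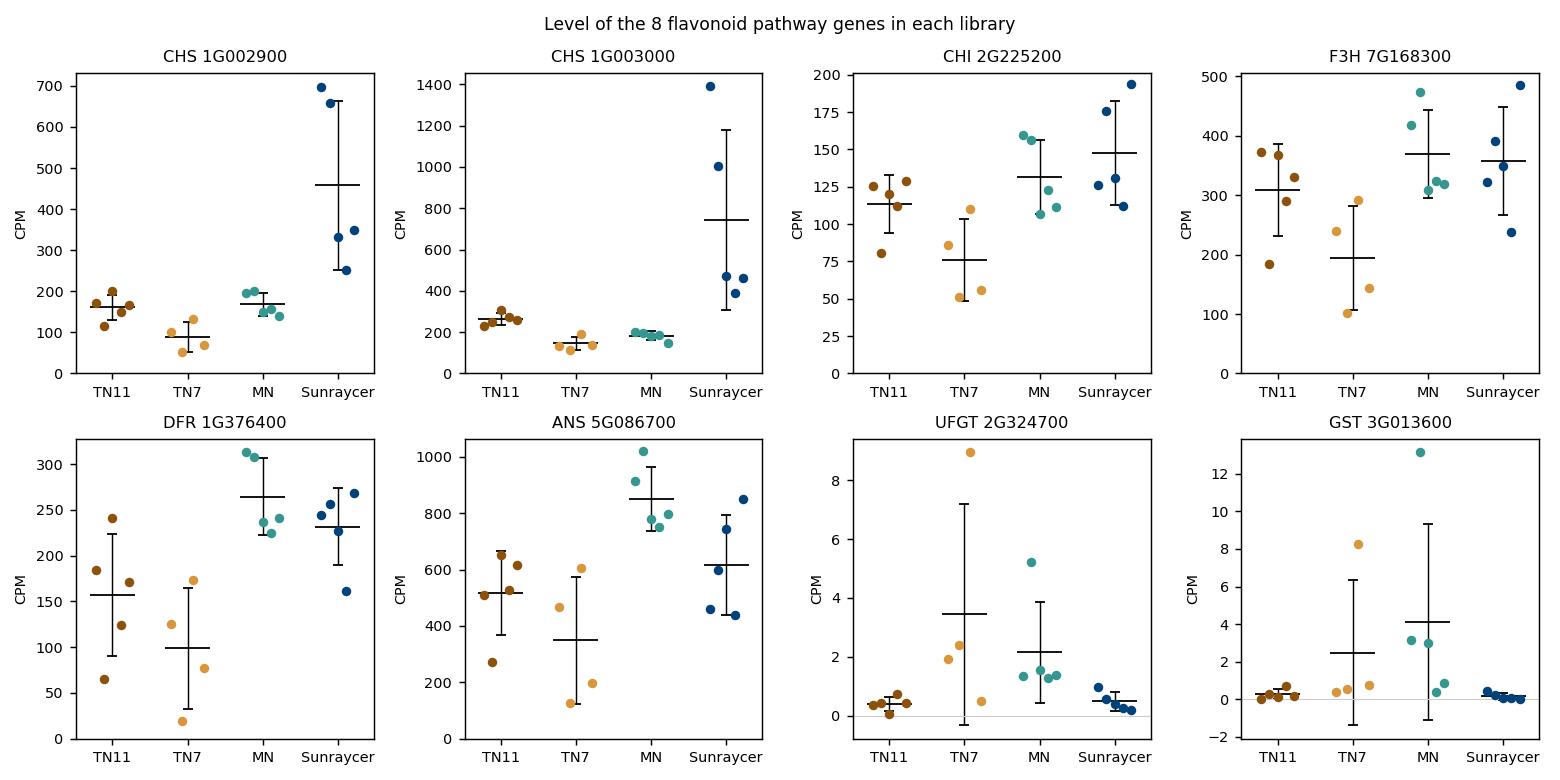
CPM (vertical axis) of the 8 genes in each library, by accession; points are libraries in order of replicate number, horizontal bars are means and whiskers are SD (n = 5, and 4 for TN7). Both chalcone synthases stand above the other accessions in every Sunraycer library, and MN 3 and TN7 3 are the highest libraries of their accessions for UFGT and GST.

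CHS 1G002900 was at 699, 659, 332, 253 and 349 CPM in Sunraycer libraries 1, 2, 3, 4 and 10. In TN11 libraries 1 to 5 it was at 173, 117, 201, 149 and 166 CPM. The MN libraries 1, 3, 4, 5 and 6 had 196, 200, 151, 157 and 139 CPM. Every Sunraycer library was above every MN and TN11 library, and Sunraycer 1 and 2 were far above the other 3 of their accession. The TN7 libraries 1, 2, 3 and 5 had 102, 51.5, 132 and 69.8 CPM, all below MN and overlapping with TN11 at 1 library. The order of the means was Sunraycer (458 ± 205 CPM, SD, n = 5), MN (168 ± 27.8, SD, n = 5), TN11 (161 ± 31.1, SD, n = 5) and TN7 (88.9 ± 35.7, SD, n = 4). The neighbours MN and TN11 did not differ beyond their spread: the log2 fold change was 0.07, with a 95% interval of −0.52 to 0.65 (edgeR adjusted p = 0.878).

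CHS 1G003000, the other chalcone synthase, was also highest in Sunraycer. Its Sunraycer libraries 1, 2, 3, 4 and 10 had 1390, 1006, 471, 390 and 463 CPM. The TN11 libraries 1 to 5 had 229, 249, 306, 273 and 261 CPM, and the MN libraries 1, 3, 4, 5 and 6 had 200.2, 197, 180.2, 188 and 147 CPM. Sunraycer 1 was again the highest library. TN7 libraries 1, 2, 3 and 5 had 133, 116, 192 and 139 CPM. Sunraycer and TN11 each stood clear of the other accessions, while the MN and TN7 libraries overlapped. The means were 744 ± 437 CPM in Sunraycer (SD, n = 5), 264 ± 28.6 in TN11 (SD, n = 5), 182 ± 21.6 in MN (SD, n = 5) and 145 ± 33.1 in TN7 (SD, n = 4).

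The Sunraycer excess passed the test for both copies against each other accession. Against TN11 the log2 fold change was 1.51 for CHS 1G002900 (SE 0.285, edgeR adjusted p = 0.00055) and 1.50 for CHS 1G003000 (SE 0.283, edgeR adjusted p = 0.000556). Against TN7 both were 2.36 (SE 0.319 and 0.317, edgeR adjusted p = 3e-05 and 2.88e-05). MN lay below Sunraycer by 2.72-fold for CHS 1G002900 (log2 −1.44, SE 0.285, edgeR adjusted p = 0.000568) and by 4.08-fold for CHS 1G003000 (log2 −2.03, SE 0.288, edgeR adjusted p = 4.61e-05). These calls held when any single library was left out. Without both Sunraycer 1 and Sunraycer 2, chosen after their values were seen, the excess over TN11 shrank to log2 0.97 (edgeR adjusted p = 0.0083) for CHS 1G002900 and 0.76 (edgeR adjusted p = 0.0015) for CHS 1G003000. Both then missed the 2-fold minimum while their adjusted p stayed below 0.05. In the same fit CHS 1G002900 was no longer called between MN and Sunraycer (log2 −0.89, 1.85-fold, edgeR adjusted p = 0.00988). CHS 1G003000 was still called, with differences of 2.43-fold from MN and 3.04-fold from TN7, as was CHS 1G002900 against TN7 at 3.49-fold.

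Whether MN differs from TN7 by as much as Sunraycer differs from TN11 was tested directly. Of the 8 members 1 was called, CHS 1G003000, against 21.7% of all genes (8.27% with a positive and 13.4% with a negative difference). The copy was 1.26-fold higher in MN than in TN7 (log2 0.33, 95% interval −0.29 to 0.95) and 2.82-fold higher in Sunraycer than in TN11, a log2 difference of −1.17 (SE 0.404, edgeR adjusted p = 0.0326). Leaving out single libraries ended this call in 7 of 19 cases (MN 6, Sunraycer 1, Sunraycer 2, TN11 1, TN11 5, TN7 3 or TN7 5). Over all 19 such fits the values ran from −1.33 to −0.84. The block on replicate number ended the call too (log2 −1.06, edgeR adjusted p = 0.104), though numbers were not shown to pair Sunraycer with TN11 libraries. Without Sunraycer 1 and 2 together the value was −0.44 (edgeR adjusted p = 0.126). Without TN7 3, ANS was called instead (log2 1.43, edgeR adjusted p = 0.0266), against a value of 1.03 with all libraries (edgeR adjusted p = 0.104).

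Because both copies may share reads, they were also summed and compared within each library, a comparison chosen after the data were seen. The ratio of CHS 1G003000 to CHS 1G002900 counts, which is not adjusted for gene length, was 1.02, 0.987, 1.19, 1.196 and 1.06 in MN libraries 1, 3, 4, 5 and 6. In TN11 libraries 1 to 5 it was 1.33, 2.14, 1.52, 1.83 and 1.58, and in Sunraycer libraries 1, 2, 3, 4 and 10 it was 1.99, 1.53, 1.4196, 1.55 and 1.33. In TN7 libraries 1, 2, 3 and 5 it was 1.31, 2.24, 1.45 and 1.99. All MN libraries lay below all libraries of the other accessions. The MN ratio was 0.657 times that of TN11 and 0.703 times that of Sunraycer (exact two-sided permutation p = 0.00794 each, adjusted 0.0238 over 12 ratio tests), and 0.637 times that of TN7 (exact permutation p = 0.0159, adjusted 0.0272). The permutation test as computed here cannot give a smaller p on 5 and 5, or 5 and 4, libraries. With 1 library left out, the adjusted p of MN against TN7 reached 0.0612. Fewer libraries also raise the smallest p that the test can give, so this value does not show dependence on 1 library. The other 3 pairs did not pass the test (exact permutation p = 0.516 to 0.841). How the authors' counting divided reads between the copies is not given in the sources used here, and the part of read sharing in this ratio was not tested.

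**Figure D2:**
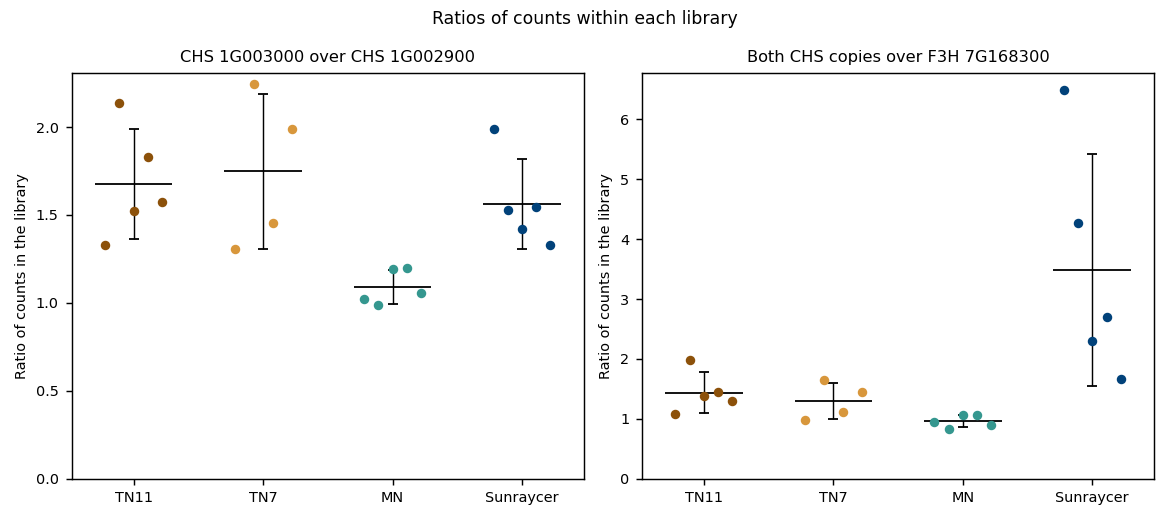
Ratios of raw counts within each library (vertical axes) by accession: CHS 1G003000 over CHS 1G002900 on the left and both chalcone synthases together over F3H on the right; points are libraries, bars are means and whiskers are SD (n = 5, and 4 for TN7). The MN libraries sit between 0.987 and 1.196 on the left, below all others, and the Sunraycer libraries reach 6.49 on the right.

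The high chalcone synthase level of Sunraycer was not matched by the next enzymes of the trunk. CHI had 148 ± 35.0 CPM in Sunraycer (SD, n = 5), 132 ± 25.0 in MN (SD, n = 5), 114 ± 19.4 in TN11 (SD, n = 5) and 75.9 ± 27.4 in TN7 (SD, n = 4). F3H had 369 ± 73.6 CPM in MN (SD, n = 5), 357 ± 91.1 in Sunraycer (SD, n = 5), 309 ± 77.3 in TN11 (SD, n = 5) and 195 ± 87.2 in TN7 (SD, n = 4). Sunraycer minus TN11 was 0.38 on the log2 scale for CHI (95% interval −0.06 to 0.82, edgeR adjusted p = 0.15) and 0.21 for F3H (95% interval −0.35 to 0.76, edgeR adjusted p = 0.534). Within libraries, the summed chalcone synthase counts were 6.49, 4.26, 2.30, 2.70 and 1.67 times those of F3H in Sunraycer libraries 1, 2, 3, 4 and 10, and 0.838 to 1.07 times in MN. In TN11 the ratio ran from 1.08 to 1.99 and in TN7 from 0.979 to 1.65.

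The chalcone synthase to F3H ratio was 0.309 times as high in MN as in Sunraycer and 0.681 times as high as in TN11, with no overlap of libraries (exact permutation p = 0.00794 each, adjusted 0.0238 over the 12 ratio tests). Sunraycer was 2.20 times TN11 and 2.44 times TN7 (exact permutation p = 0.0159 each, adjusted 0.0272). The Sunraycer and TN11 libraries overlapped on this ratio, since Sunraycer 10 (1.67) was below TN11 2 (1.99). Leaving out 1 library brought the adjusted p of Sunraycer against TN11 and TN7 to as much as 0.0544 and 0.0612. Sunraycer and TN7 libraries did not overlap on this ratio, and fewer libraries raise the smallest p possible. The 0.0612 therefore does not show dependence on 1 library.

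DFR was at 313, 308, 237, 224 and 241 CPM in MN libraries 1, 3, 4, 5 and 6. The TN7 libraries 1, 2, 3 and 5 had 126, 19.6, 174 and 77.1 CPM. All MN libraries were above all TN7 libraries, and TN7 2 was far below the rest. In Sunraycer libraries 1, 2, 3, 4 and 10 DFR had 244, 256, 227, 162 and 269 CPM, and in TN11 libraries 1 to 5 it had 184, 64.9, 242, 124 and 171 CPM. TN11 2 was the low library of its accession, and TN11 overlapped with every other accession. The means followed the order MN (265 ± 42.4 CPM, SD, n = 5), Sunraycer (231 ± 41.9, SD, n = 5), TN11 (157 ± 66.4, SD, n = 5) and TN7 (99.0 ± 66.0, SD, n = 4).

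ANS was at 913, 1020, 778, 749 and 796 CPM in MN libraries 1, 3, 4, 5 and 6. In TN7 libraries 1, 2, 3 and 5 it was at 467, 126, 604 and 196 CPM, below every MN library. The TN11 libraries 1 to 5 had 512, 272, 653, 529 and 615 CPM, also below every MN library. Sunraycer libraries 1, 2, 3, 4 and 10 had 462, 598, 743, 438 and 848 CPM and overlapped with all other accessions. The means were 851 ± 113 CPM in MN (SD, n = 5), 618 ± 177 in Sunraycer (SD, n = 5), 516 ± 149 in TN11 (SD, n = 5) and 348 ± 225 in TN7 (SD, n = 4).

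MN was compared with TN7 because both are stated Gg while one is smooth and the other hairy. DFR was 2.67-fold higher in MN (log2 1.418, SE 0.436, edgeR adjusted p = 0.0283) and ANS 2.44-fold higher (log2 1.29, SE 0.37, edgeR adjusted p = 0.0196). CHS 1G002900, CHI and F3H had adjusted p-values of 0.0385, 0.0193 and 0.0283 in edgeR but differences of 1.89-fold, 1.73-fold and 1.90-fold, under the 2-fold minimum. With the replicate number as a block, CHS 1G002900 (log2 1.08, edgeR adjusted p = 0.0491) and F3H (log2 1.01, edgeR adjusted p = 0.0243) were called too, 4 members in all. The count rested on single TN7 libraries: 6 members were called without TN7 3, where levels were highest, and 0 without TN7 5 (edgeR adjusted p = 0.0852 for DFR and 0.0711 for ANS). It was 1 without TN7 2, MN 1 or MN 3, and 0 without TN7 2 and TN7 5 together, where DFR kept a log2 value of 0.82 and ANS of 0.67. Over all genes, 1999 of 19360 were called with all libraries and 2316 of 19544 without TN7 3. The calls were 1676 of 19524 without TN7 5 and 1098 of 19824 without TN7 2 and 5. In these fits the members' count moved in the direction of the whole table. Elsewhere it did not: 4 members were called with the replicate block and in limma-voom, with 1520 and 1926 of 19360 genes. Without MN 3 and TN7 3 together, 4 members and 1902 of 19505 genes were called.

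TN7 also had lower means than TN11 for these trunk genes, but the differences did not pass the test in the fit of all libraries. TN7 minus TN11 was −0.86 on the log2 scale for each chalcone synthase (edgeR adjusted p = 0.098 and 0.0934), −0.58 for CHI, −0.67 for F3H, −0.67 for DFR and −0.57 for ANS (edgeR adjusted p = 0.14 to 0.429). For DFR the 95% interval ran from −1.56 to 0.23. Without TN7 3, CHS 1G002900 was called lower in TN7 (log2 −1.11, edgeR adjusted p = 0.0481). For the chalcone synthases the outcome also depended on Sunraycer libraries, which share the fit. Without Sunraycer 1 and 2, left out after their values were seen, both were at log2 −0.84, under the 2-fold minimum. Their edgeR adjusted p was then 0.0284 for CHS 1G002900 and 0.00101 for CHS 1G003000. Against Sunraycer, TN7 had 2.34-fold less DFR (log2 1.23 for Sunraycer minus TN7, SE 0.434, edgeR adjusted p = 0.0356), a call lost without Sunraycer 1, 2 or 10 or TN7 1, 2 or 5 (edgeR adjusted p up to 0.0732). CHI and F3H had adjusted p-values of 0.00409 and 0.0239 for Sunraycer minus TN7 and differences of 1.95-fold and 1.84-fold. Without TN7 3 both were called, and ANS as well (log2 1.19, 1.14 and 1.23). MN and TN11 did not differ by the test in any of these 4 genes; the log2 fold change of ANS was 0.72 (95% interval 0.01 to 1.44, edgeR adjusted p = 0.11) and that of DFR 0.75 (95% interval −0.09 to 1.59, edgeR adjusted p = 0.156). Between MN and Sunraycer the intervals were −0.61 to 0.28 for CHI, −0.51 to 0.60 for F3H, −0.64 to 1.03 for DFR and −0.25 to 1.17 for ANS.

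**Figure D3:**
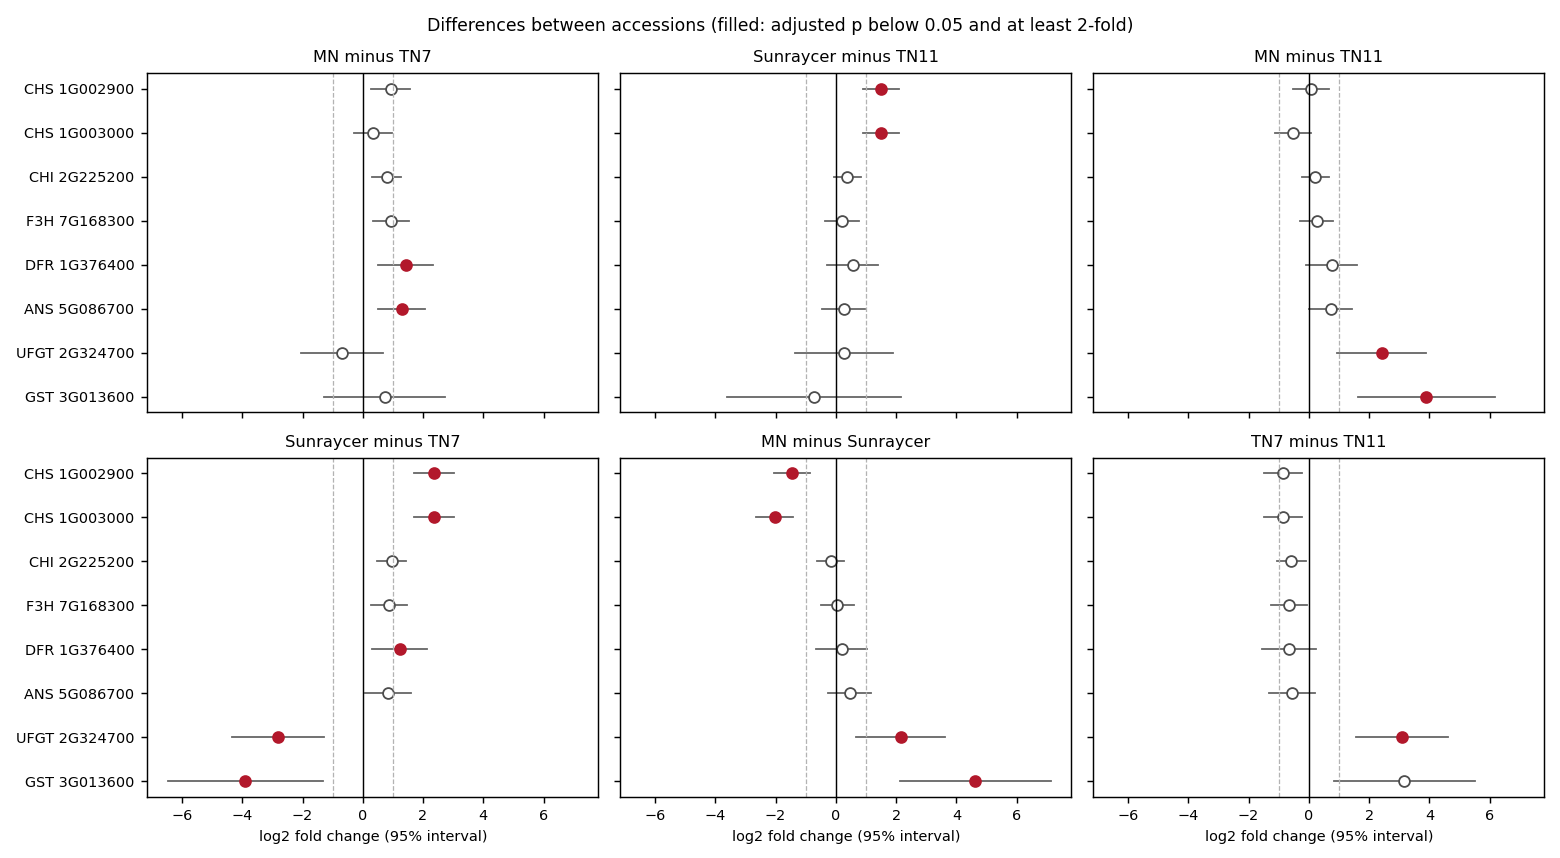
Log2 fold changes (horizontal axis) of the 8 genes for the 6 pairs of accessions, with 95% intervals; filled points passed the adjusted p of 0.05 and the 2-fold minimum (dashed lines) in edgeR. Chalcone synthase was called in each pair with Sunraycer, and UFGT in each pair that sets MN or TN7 against TN11 or Sunraycer.

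UFGT, which carries out the last step of anthocyanin synthesis listed here, was scarce. Its counts in TN7 libraries 1, 2, 3 and 5 were 46, 50, 192 and 9, or 1.92, 2.41, 8.96 and 0.483 CPM. In MN libraries 1, 3, 4, 5 and 6 they were 24, 116, 34, 32 and 30, or 1.36, 5.21, 1.54, 1.26 and 1.39 CPM. The libraries TN7 3 and MN 3 were far above the rest of their accessions. The counts were 7, 10, 1, 17 and 9 in TN11 libraries 1 to 5 and 15, 13, 6, 5 and 3 in Sunraycer libraries 1, 2, 3, 4 and 10, at most 0.728 and 0.972 CPM. Every MN library was above every TN11 and Sunraycer library, while TN7 5 lay among the TN11 and Sunraycer libraries.

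UFGT was 5.32-fold higher in MN than in TN11 (log2 2.41, SE 0.7, edgeR adjusted p = 0.0133) and 4.43-fold higher than in Sunraycer (log2 2.15, SE 0.703, edgeR adjusted p = 0.015). TN7 exceeded TN11 by 8.50-fold (log2 3.09, SE 0.722, edgeR adjusted p = 0.0112) and Sunraycer by 7.08-fold (log2 −2.82 for Sunraycer minus TN7, SE 0.725, edgeR adjusted p = 0.00662). These 4 differences are given as a description, because UFGT was kept by the count filter through the MN and TN7 libraries where it is high. MN and TN7 did not differ by the test (log2 −0.68, 95% interval −2.04 to 0.68). Without MN 3 the difference from TN11 was log2 1.78 (edgeR adjusted p = 0.0569) and that from Sunraycer 1.51 (edgeR adjusted p = 0.0663). Without TN7 3 the difference between TN7 and TN11 was log2 2.00 (edgeR adjusted p = 0.0866), and that between Sunraycer and TN7 −1.73 (edgeR adjusted p = 0.06). Without MN 3 and TN7 3 together all 4 differences were called again (log2 1.51 to 2.00 in size, edgeR adjusted p = 0.0192 to 0.0448). With the replicate number as a block, 3 of the 4 were not called (edgeR adjusted p = 0.0513 for MN minus TN11, 0.053 for MN minus Sunraycer and 0.0817 for TN7 minus TN11). In these pairs replicate numbers were not shown to pair libraries, and the block leaves fewer degrees of freedom.

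GST, the gene for pigment transport, was also scarce. Its counts were 56, 293, 66, 10 and 19 in MN libraries 1, 3, 4, 5 and 6, or 3.17, 13.2, 2.98, 0.395 and 0.880 CPM. In TN7 libraries 1, 2, 3 and 5 they were 9, 11, 177 and 14, or 0.375, 0.530, 8.26 and 0.752 CPM. MN 3 and TN7 3 were the highest of their accessions for this gene too. TN11 libraries 1 to 5 had 0, 7, 3, 16 and 4 counts, and Sunraycer libraries 1, 2, 3, 4 and 10 had 7, 5, 1, 1 and 0. Given 3 counts as the limit that a count of 0 allows, GST could have reached 0.154 CPM in TN11 1 and 0.195 CPM in Sunraycer 10, for counting error only. The lowest MN library overlapped with TN11 and Sunraycer, and TN7 libraries 1 and 2 lay within the TN11 range.

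The fitted difference of GST, in the fit of all 4 accessions, was log2 3.90 for MN minus TN11 (SE 1.08, edgeR adjusted p = 0.0100) and 4.63 for MN minus Sunraycer (SE 1.19, edgeR adjusted p = 0.00356). Without MN 3 they were 2.74 and 3.47 and still called, the first with an edgeR adjusted p of 0.049. The difference between MN and Sunraycer, and that between Sunraycer and TN7, is given as a description, because GST did not pass the count filter in either pair alone. With no filter on low counts the values were 4.63 and −3.90 (edgeR adjusted p = 0.00399 and 0.0225). MN minus TN11 is likewise a description, since GST was kept in that pair through MN libraries where it is high. Sunraycer minus TN7 was −3.90 (SE 1.22, edgeR adjusted p = 0.0201), and it was −1.74 without TN7 3 (edgeR adjusted p = 0.274). TN7 minus TN11 was 3.17 (95% interval 0.84 to 5.50, edgeR adjusted p = 0.0943) and 1.00 without TN7 3 (edgeR), but DESeq2 called it (log2 3.23, adjusted p = 0.031). That call is a description too, since GST was kept in the fit through MN and TN7 libraries where it is high. By the block on replicate number the Sunraycer minus TN7 call was also lost (edgeR adjusted p = 0.0666), though numbers were not shown to pair libraries there. MN and TN7 did not differ by the test, with a wide 95% interval of −1.29 to 2.74. Without TN7 3, GST was log2 2.90 higher in MN than in TN7 (edgeR adjusted p = 0.0496), and without MN 3 the log2 difference was −0.43. The value without TN7 3 is likewise a description, for the same reason.

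The order of the libraries within an accession was shared by several trunk genes, but less so by CHS 1G003000, which ranked TN7 5 above TN7 1 and had its lowest TN11 library in replicate 1. In TN7, CHS 1G002900, CHI, F3H, DFR and ANS, 5 members, all ranked the libraries in the same order, with replicate 3 first, then 1, 5 and 2. DFR spread over 8.86-fold between the TN7 libraries and ANS over 4.80-fold, against 1.40-fold and 1.36-fold between the MN libraries. In TN11 the lowest library was replicate 2 for CHS 1G002900, CHI, F3H, DFR and ANS, and in Sunraycer it was replicate 4 for both chalcone synthases and for CHI, F3H, DFR and ANS. The chalcone synthases departed from this order in Sunraycer: they were highest in replicate 1, while CHI, F3H, DFR and ANS were highest in replicate 10.

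**Figure D4:**
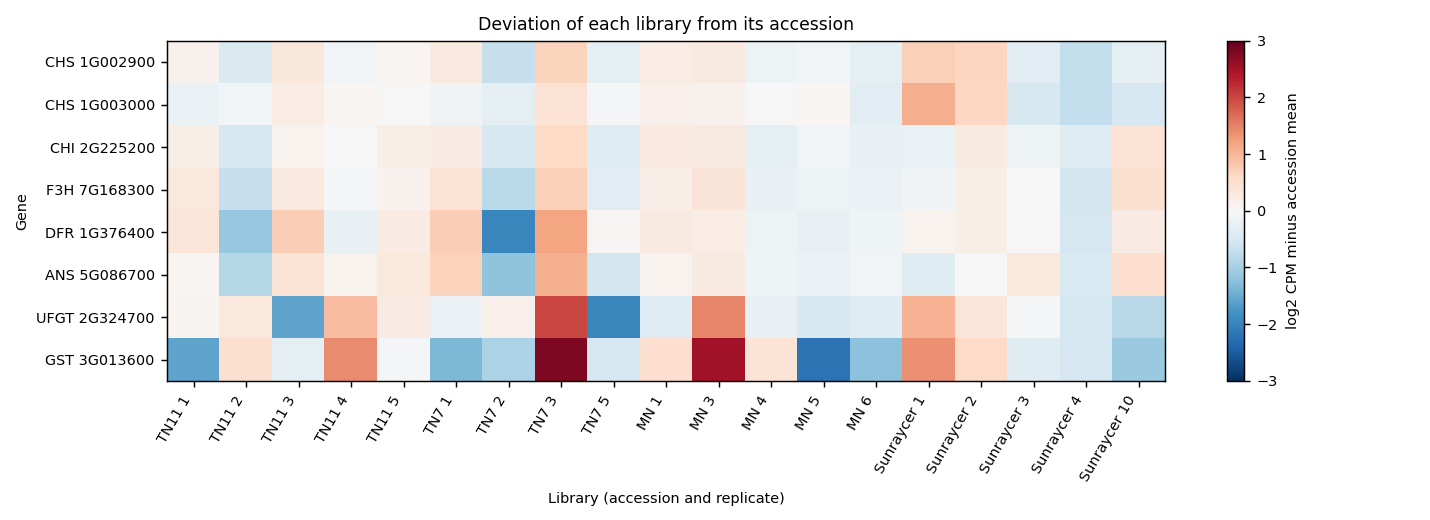
Deviation of log2 CPM (prior count 2) from the mean of the accession (colour) for each gene (rows) in each library (columns). TN7 2 is low and TN7 3 high through the trunk genes, Sunraycer 1 and 2 are high in chalcone synthase, and MN 3 and TN7 3 stand out in UFGT and GST.

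The spread of the members between replicates was above that of most genes. The biological coefficient of variation in edgeR, a measure of spread beyond counting error, had a median of 0.21 over all tested genes and lay between 0.244 (CHI) and 0.436 (DFR) in the 6 trunk members. It was 0.699 for UFGT and 1.08 for GST, above 96.3% and 99.1% of tested genes. The mean CPM of these 2 genes was above only 12.3% and 13.4% of tested genes, and their spread was not compared with that of equally scarce genes. The 8 members together took 0.204 ± 0.0282% of all counts in MN (SD, n = 5), 0.234 ± 0.0524% in Sunraycer (SD, n = 5), 0.154 ± 0.0353% in TN11 (SD, n = 5) and 0.100 ± 0.0520% in TN7 (SD, n = 4).

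Libraries of every accession also spread along a direction shared by many genes, which held 39.7% of the variance within accessions over the 19352 tested genes that are not members. The score on it ran from −0.760 to −0.126 in MN and from 0.173 to 1.21 in Sunraycer, without overlap, and from −0.361 to 0.377 in TN7. With the score as a covariate, none of the 4 calls between MN and Sunraycer remained: both chalcone synthases kept their direction, at log2 −1.34 and −1.27 (edgeR adjusted p = 0.127 and 0.1). Over all genes the calls in that pair went from 4884 to 842 of 19360, so the loss is not particular to the members. Since the scores do not overlap, the score and the accession cannot be told apart in that pair. Sunraycer minus TN11 stayed at log2 1.45 for CHS 1G002900 and 1.03 for CHS 1G003000, both called. In the same fit CHI, F3H and ANS were called higher in Sunraycer than in TN7 (log2 1.43, 1.39 and 1.62), while UFGT and GST were not called between Sunraycer and TN7 (edgeR adjusted p = 0.272 and 0.386) or between MN and TN11 (edgeR adjusted p = 0.0988 and 0.114). DFR was not called between MN and TN7 in that fit (log2 1.25, edgeR adjusted p = 0.06).

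The genes most like the members were sought among all other tested genes by Pearson correlation of log2 CPM over the 19 libraries, a description across libraries that share accessions. The closest to F3H and to DFR was Prupe.1G264900.v2.1 (r = 0.964 and 0.959), with 71.5 ± 10.2 CPM in MN (SD, n = 5), 67.0 ± 15.9 in Sunraycer (SD, n = 5), 54.9 ± 14.9 in TN11 (SD, n = 5) and 25.7 ± 14.3 in TN7 (SD, n = 4). The closest to ANS was Prupe.3G241700.v2.1 (r = 0.972), highest in MN at 63.3 ± 9.45 CPM (SD, n = 5) and lowest in TN7 at 20.01 ± 12.3 CPM (SD, n = 4). The closest to CHS 1G003000 was Prupe.2G263900.v2.1 (r = 0.970), with 227 ± 99.9 CPM in Sunraycer (SD, n = 5) and 117 ± 12.9 in TN11 (SD, n = 5), and the closest to CHS 1G002900 was Prupe.6G235400.v2.1 (r = 0.936). The closest to CHI was Prupe.4G029700.v2.1 (r = 0.947), and the closest to the mean of the members was Prupe.5G203600.v2.1 (r = 0.924). No gene came as near to UFGT or GST, whose best values were 0.817 and 0.782.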

How the data were processed

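Estimated counts, as deposited by the authors, cover 19 libraries, all whole numbers (0 values were not whole) and not normalized. Per the submitters' processing notes, tools included Bowtie2 2.5.1 and RSEM 1.2.31, besides R 4.1.1 with DESeq2, whose roles are not stated. Build and strand setting: not given in the sources used here. Per the labels' protocols, libraries were made with a stranded mRNA kit. Columns were matched to samples by title (0 columns were left over), and TN7 replicate 4 was not analysed here.

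Genes kept by filterByExpr (19360 of 26811) were scaled with TMM factors and fitted in edgeR 4.0.16 (R 4.3.3), with 1 mean per accession. The standard error is the size of the log2 fold change divided by the square root of F. The script was tested on simulated counts, with 200 genes changed 2-fold or 4-fold in MN. For MN minus TN7 it called 94% of the 4-fold and 36% of the 2-fold changes. On the adjusted p alone 63% of the 2-fold changes passed, so a member that was not called can still differ by about 2-fold. Alternatives used DESeq2 1.42.0, limma 3.58.1, RLE factors, no filter, fits of 2 accessions, a block, a covariate and left-out libraries. Exact permutation tests used SciPy 1.17.1 in Python 3.11.15. No 2 libraries of an accession agreed within sampling noise (smallest chi-square per degree of freedom 7.13).

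The members and lists were chosen with earlier results of these data known. All members are named; genes most like them were the 2 with the highest correlation to each and the 5 nearest to their mean, of which the closest are named, except for UFGT and GST, where only the correlation is given. Lists of other pathway genes and of tissue markers were to be matched by RefSeq description, but 0 ids matched, so neither is reported and the labelled tissue was not checked by markers. Same-numbered libraries of MN and TN7 deviated together at all 3 shared numbers (correlations 0.419 to 0.486 across genes), which by the rule applied here counts as pairing, although the labels do not state it. In no other pair of accessions were all such correlations above 0.1. Single correlations of like size occurred elsewhere, as for Sunraycer with TN7, at 0.536 for number 3 and −0.547 for number 1. The rule therefore does not show that numbers pair samples.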

Additional observations from a re-analysis of the deposited data

Results flagged for a closer look

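Single libraries stood apart from their accession in 3 of 40 groups examined, where chance would give about 1 in 20. UFGT (Prupe.2G324700.v2.1) in MN 3, at 5.21 CPM, was separated from the next library by 0.931 of the range of its accession. GST (Prupe.3G013600.v2.1) in MN 3, at 13.2 CPM, was separated by 0.782 of the range. GST in TN7 3, at 8.26 CPM, was separated by 0.952 of the range. The same libraries were the highest for both genes, and both carry replicate number 3.

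The nectarine minus peach difference of CHS 1G003000 (Prupe.1G003000.v2.1) differed between MN with TN7 and Sunraycer with TN11 by −1.166 on the log2 scale (edgeR adjusted p = 0.0326). The call was lost in 7 of 19 fits with a library left out, with the replicate block, with the score as a covariate, in limma-voom and with the copies summed, and the value was −0.44 without Sunraycer 1 and 2 (edgeR adjusted p = 0.126).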

How the results depend on the processing

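Between MN and TN7 (2 members called), the count was 5 on the adjusted p alone, 4 with the replicate block and 4 in limma-voom. It was 1 with the axis score as a covariate, 1 with only these accessions fitted and 0 to 6 with single libraries left out. Without MN 3 and TN7 3 the count was 4, and without TN7 2 and TN7 5 it was 0. Over all genes, 1999 of 19360 were called in this pair, 1520 with the block, 1926 in limma-voom and 1654 with the score. The calls were 1883 of 18491 genes with only these accessions, 1902 of 19505 without MN 3 and TN7 3, and 1098 of 19824 without TN7 2 and 5. Between MN and TN11 (2) the members' count was 0 with the score, 1 with the replicate block and 1 to 2 with libraries left out. All-gene calls in that pair were 2904 of 19360, 2471 with the score and 2480 with the block. Between Sunraycer and TN11 the members' count was 0 without Sunraycer 1 and 2, and 2 with any single library left out. All-gene calls there were 3550 of 19360, and 2620 of 19423 without Sunraycer 1 and 2. Between Sunraycer and TN7 (5) the members' count was 3 with only these accessions, and between MN and Sunraycer (4) it was 0 with the score. All-gene calls went from 3129 of 19360 to 2337 of 18670 in the first case, and from 4884 to 842 of 19360 in the second. Between TN7 and TN11 (1) the members' count was 0 with the replicate block and 2 in DESeq2. All-gene calls there were 840 of 19360, 758 with the block and 1017 in DESeq2. Without TN7 3 the count stayed at 1, but the member called was CHS 1G002900, lower in TN7, and no longer UFGT. For the difference of differences (1) the members' count was 0 with the score, the replicate block, limma-voom and the summed chalcone synthases. It was also 0 without Sunraycer 1 and 2 and without TN7 2 and 5, and 0 to 1 with libraries left out. All-gene calls were 4199 of 19360, 817 with the score, 3454 with the block and 4362 in limma-voom. They were 4199 of 19359 with the copies summed, 2880 of 19423 without Sunraycer 1 and 2, and 1693 of 19824 without TN7 2 and 5. The cause was not tested.

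Values that changed sign, none of them called under the setting used for the report, were as follows on the log2 scale. With the score, GST became −0.0987 for MN minus TN7, 0.60 for Sunraycer minus TN11 and −0.70 for the difference of differences. CHI became −0.0899 and F3H −0.0704 for MN minus TN11. F3H became −0.70, DFR −0.41 and ANS −0.62 for MN minus Sunraycer, and CHI −0.21 for the difference of differences. The replicate block gave DFR −0.0371 for MN minus Sunraycer, and the summed chalcone synthases −0.28 for MN minus TN11. With libraries left out, singly or as pairs, UFGT ran from −1.33 to 0.42 and GST from −0.43 to 2.90 for MN minus TN7. UFGT ran from −0.45 to 0.60 for Sunraycer minus TN11 and from −1.59 to 0.15 for the difference of differences. CHS 1G002900 ran from −0.0316 to 0.16 for MN minus TN11, F3H from −0.0698 to 0.18 for MN minus Sunraycer, ANS from −0.97 to 0.0558 for TN7 minus TN11 and the copy ratio from −0.0883 to 0.17 for TN7 minus TN11.

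Replicate numbers were not shown to pair libraries in any pair of accessions, and only MN with TN7 met the correlation rule. Left-out pairs, the summed copies in ratios and the within-library ratios were chosen after seeing the data. Counts of UFGT and GST in TN11 and Sunraycer were at most 17, so depth limits their folds. In fits of 2 accessions GST was filtered out in 3 pairs and UFGT in 1.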
